A study of Mus musculus with 8 samples.

Results

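The 44 immediate early and growth-response genes described here were listed under the theme of transcripts that cells switch on within minutes of a stimulus. Not every member is such a transcript, since Jund is constitutively expressed. The 44 genes were followed in the renal cortex of mice that lack SPAK, a kinase encoded by Stk39, and of their wild-type littermates. The genes were named in a list, and the theme of the list was selected on the difference between SPAK KO and WT in these same arrays. Every count and difference below is therefore a description and not a test of the list. All 44 members were measured, out of 19938 genes, and each had 1 probe set annotated with its symbol alone.

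The samples were 4 of SPAK KO cortex (labelled littermate SPAK (Stk39) KO) and 4 of WT cortex (labelled littermate wild type). All were from male C57Bl6J mice aged 10 weeks. Whether each sample came from a separate animal is not settled here, since some arrays agree very closely (below). Both groups ate a diet with 0.32% NaCl and 1% KCl, drank freely and received no other agent, and the labels do not state which part of Stk39 was disrupted. RNA of the dissected cortex was hybridised to 1 one-colour Affymetrix array per sample. The values are log2 expression values (RMA, a method that corrects background, equalises arrays and combines the probes of a probe set). A difference of 1 on this scale is a 2-fold change. The stated aim of the study was to find genes that work together to limit renal salt loss without SPAK.

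Immediate early genes are transcribed without new protein synthesis when growth factors, stress or hormones activate MAP kinases, cAMP or NF-κB. Serum response factor and CREB are the best known factors on their promoters. Many of the products are transcription factors, and others switch the response off again: dual-specificity phosphatases inactivate MAP kinases, and proteins such as tristetraprolin destroy short-lived mRNAs. In the kidney these genes are known for their fast rise after ischaemia and in response to growth factors and vasoactive hormones.

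Stk39 itself read 7.21, 6.98, 6.79 and 7.10 on SPAK KO arrays 1 to 4, against 8.36, 8.51, 8.60 and 8.11 on WT arrays 1 to 4, so the groups did not overlap. Arrays of one genotype were unequally alike. Between 1 and 10 of 6297 genes with a mean above 8 differed by more than 0.4 in the 6 pairs of SPAK KO arrays, 3 between WT 2 and WT 3, and 119 to 228 in the 5 other WT pairs. WT 2 and WT 3 are therefore averaged before any WT mean and SD is taken (n = 3), SPAK KO values are given array by array with no SD between animals, and the standard errors (SE) and calls of the fit over 8 arrays rest on a spread between SPAK KO arrays that may be technical. Array medians over all probe sets were 6.09 to 6.12 in SPAK KO and 6.13 to 6.19 in WT. Cortex markers were present: of 6 measured, group means ran from 7.32 to 13.8 in SPAK KO and from 7.17 to 13.8 in WT, and 0 were called. Of the 6, 2 lay below every WT array on all SPAK KO arrays, Slc5a2 (difference −0.17) and Slc12a3 (−0.14), where 5.71% of all genes did.

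In SPAK KO cortex 18 of the 44 members were called higher and 0 lower, and 26 were not called. A gene was called when its limma p-value, adjusted over all 19938 genes, was under 0.05. Over all genes 1.39% were called higher and 0.682% lower. The 18 were all among the 37 members with a mean of 6 or more, a level at which 256 of 12001 genes were called higher. The 7 dimmer members (Fosb, Egr2, Nr4a2, Nr4a3, Maff, Dusp2 and Ier2) were not called, and at such low values a missing call says little. The called members were led by Plk3, Gadd45g, Zfp36, Egr1, Jun and Rgs2, and their differences corresponded to 1.25-fold to 2.49-fold, with 2 of the 18, Plk3 and Gadd45g, reaching 2-fold. The median difference over the 44 was 0.23, against −0.01 over all genes, and 38 of the 44 differences were above 0, against 45.8% of all genes. On all 4 SPAK KO arrays the same 18 members lay above every WT array, where 6.9% of all genes did. No member, 0 of 44, lay below every WT array, where 5.71% of all genes did. In whole cortex, a larger share of cells expressing a gene and more RNA per cell cannot be told apart.

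**Figure D1:**
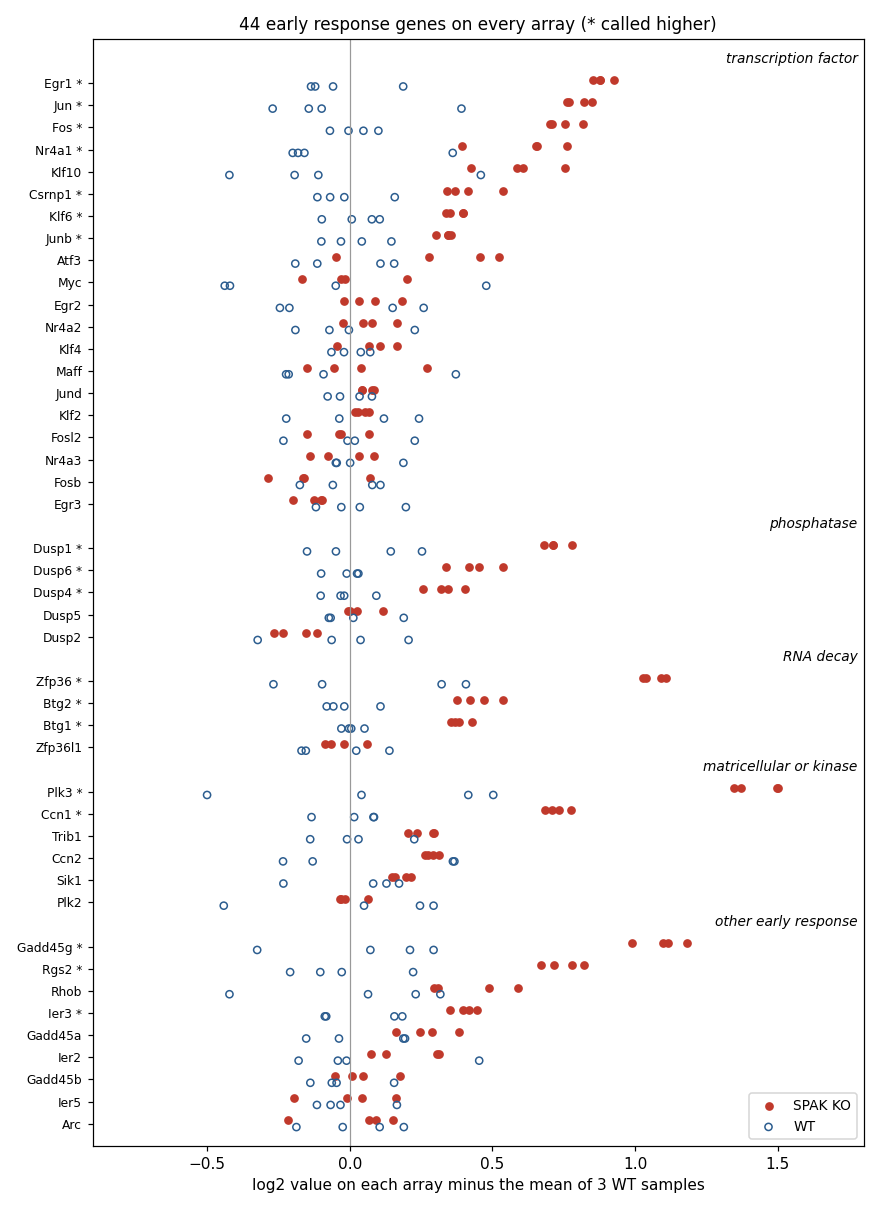
Each row is a member, grouped by role, and each point an array (filled, 4 SPAK KO; open, 4 WT); the x axis is the log2 value minus the mean of the 3 WT samples, and an asterisk marks the 18 members called higher. The SPAK KO points of those 18 lie to the right of all their WT points, whereas those of the other 26 overlap with WT.

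Promoter sequence was examined as a property that does not come from the array values. The members were listed as early response genes, and motifs of factors known from that response were searched. The shares below are therefore a description. RefSeq windows of build GRCm38.p6, from 250 bases before to 50 bases after the start of a gene, were matched by symbol for 34 of the 44 members, 16 of them called. A further 10 members (Egr1, Egr3, Klf10, Myc, Dusp4, Ccn2, Sik1, Trib1, Ier2 and Arc) had no window. The stretches shown carry a motif of a factor known to drive or belong to the early response, with the motif in capitals, written 5′ to 3′ on the strand of the gene. All end before the start of the gene. They pair members that were called (Dusp1, Btg2, Zfp36) with relatives or bearers of the same motif that were not (Plk2, Dusp5). Further called members show the EGR motif (Rgs2) or a TATA box (Fos, Gadd45g). The stretches were picked with the calls known and do not stand for all bearers of a motif, many of which were not called.

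Dusp1, CRE and E-box, chr17:26508578-26508630, minus strand: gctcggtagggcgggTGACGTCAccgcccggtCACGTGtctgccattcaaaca
Btg2, CRE and EGR motif, chr1:134079263-134079336, minus strand: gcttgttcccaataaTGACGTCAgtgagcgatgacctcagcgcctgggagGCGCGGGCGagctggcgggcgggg
Plk2, CRE, chr13:110394967-110395004, plus strand: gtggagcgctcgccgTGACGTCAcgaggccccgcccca
Zfp36, EGR motif and CArG box, chr7:28379262-28379348, minus strand: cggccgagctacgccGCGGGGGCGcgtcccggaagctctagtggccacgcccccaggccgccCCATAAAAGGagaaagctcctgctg
Dusp5, a pair of adjoining CArG boxes, chr19:53529048-53529097, plus strand: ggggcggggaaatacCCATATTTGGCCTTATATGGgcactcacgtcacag
Rgs2, EGR motif on the opposite strand, chr1:144004302-144004340, minus strand: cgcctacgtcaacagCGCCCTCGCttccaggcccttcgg
Fos, TATA box, chr12:85473842-85473877, plus strand: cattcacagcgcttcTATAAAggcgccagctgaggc
Gadd45g, TATA box, chr13:51846633-51846668, plus strand: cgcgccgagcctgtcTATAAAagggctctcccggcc

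The cAMP response element (CRE, TGACGTCA), bound by CREB and ATF proteins, stood in the windows of 4 of the 34 members, which are Dusp1, Btg2, Plk2 and Maff, and in 2.72% of 15614 measured genes with a window. Counted from the start of the gene, it began at position −143 in Dusp1, −166 in Btg2 and −62 in Plk2. The CArG box, which serum response factor binds, stood in 3 of the 34 (Zfp36, Dusp5 and Egr2) and in 1.63% of measured genes, at position −58 in Zfp36 and at −82 and −72 in Dusp5. The most widespread was the motif GCGNGGGCG of EGR proteins, in 12 of the 34 members, or 35.3%, against 9.32% of measured genes. It was held by 4 of the 16 called members (Btg2, Zfp36, Nr4a1 and Rgs2) and by 8 of the 18 that were not called. Of the same 16 and 18, the CRE was held by 2 and 2, and the CArG box by 1 and 2. The members' windows were also richer in G and C, with a median of 64.7% against 57.5% in measured genes, and the part of base composition in the share of this GC-rich motif was not tested.

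The other motifs, searched on both strands like the first ones, were TGANTCA of AP-1 (2 of 34 members, 8.08% of measured genes), TATAAA of the TATA box (8 of 34, 13.6%), CACGTG of the E-box (8 of 34, 9.50%), AAAGGTCA of NR4A receptors (0 of 34, 1.49%) and the NF-κB site (6 of 34, 5.74%). The EGR motif can overlap the GC-rich sites of other zinc finger factors. The TATA box began at position −33 in Fos and −27 in Gadd45g. Of the 8 members with TATAAA, 5 were called and 3 were not. Not every match is placed like a TATA box: in Junb it began at position 1, and in Nr4a2 at −164 on the opposite strand. Before the start of the gene alone, 7 members held TATAAA, against 12.5% of measured genes. A match is only a match of letters, and these arrays carry no measurement of binding.

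Among the 20 transcription factors, 7 were called higher in SPAK KO (Fos, Jun, Junb, Egr1, Nr4a1, Klf6 and Csrnp1), 0 lower, and 13 were not called. The median difference of the 20 was 0.09. Egr1, a zinc finger factor induced through serum response factor (probe set 10454782), read 8.96, 8.88, 8.91 and 8.91 on SPAK KO arrays 1 to 4, against 7.97, 7.90, 7.91 and 8.22 on WT arrays 1 to 4. All SPAK KO values lay well above the highest WT value, on WT 4, and the difference of 0.91 ± 0.07 (SE) is a 1.89-fold change. Its relatives Egr2 and Egr3, which bind the same motif, were not called. Egr2 differed by 0.08 ± 0.11 and Egr3 by −0.15 ± 0.07, and both overlapped between the groups.

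Jun, Junb and Jund encode the Jun proteins of the AP-1 dimer. Jun (probe set 10514466) read 9.63, 9.71, 9.69 and 9.63 in SPAK KO, against 9.26, 8.77, 8.72 and 8.60 in WT, with WT 1 the highest of its group. Its difference was 0.83 ± 0.12. Junb (10580282) read 6.78, 6.79, 6.78 and 6.74 in SPAK KO, against 6.48, 6.58, 6.41 and 6.34 in WT, a smaller gap of 0.32 ± 0.06. Jund, the constitutively expressed member of the trio, differed by 0.06 ± 0.05, and its groups overlapped.

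Fos, the classical partner of Jun (probe set 10397346), read 6.57, 6.63, 6.52 and 6.52 in SPAK KO, against 5.75, 5.86, 5.92 and 5.81 in WT. Its groups were separate, with a WT mean of 5.81 ± 0.07 (SD, n = 3) and a difference of 0.73 ± 0.05. Fosb and Fosl2 encode further Fos proteins and gave −0.12 ± 0.09 and −0.04 ± 0.09, overlapping between genotypes. Nr4a1, an orphan nuclear receptor (10427035), read 7.53, 7.16, 7.42 and 7.42 in SPAK KO, against 7.13, 6.61, 6.56 and 6.58 in WT. Here WT 1 lay just under the lowest SPAK KO array, and the difference was 0.66 ± 0.13. Its paralogs Nr4a2 and Nr4a3 gave 0.08 ± 0.08 and −0.05 ± 0.07. Both were dim, with SPAK KO means of 5.95 and 4.03.

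Klf6, a Krüppel-like factor induced by injury and growth factors (10403352), read 7.94 and 7.96 on SPAK KO 3 and 4 and just under 8 on SPAK KO 1 and 2, against 7.61, 7.68, 7.71 and 7.51 in WT, a difference of 0.35 ± 0.06. Csrnp1, a nuclear protein first known as an axin-induced gene (10597758), read 7.16, 7.21, 7.33 and 7.13 in SPAK KO, against 6.95, 6.72, 6.77 and 6.68 in WT, a difference of 0.43 ± 0.07. Both were separate between the groups by a narrow margin compared with Egr1 or Fos. Klf10, a factor induced by TGF-β, differed by as much as Nr4a1, 0.66 ± 0.16, but was not called. It read 7.60, 7.41, 7.57 and 7.74 in SPAK KO, against 7.45, 6.57, 6.88 and 6.80 in WT, where WT 1 overlapped with SPAK KO. Without WT 1 it was called, with a difference of 0.83. It was also called with arrays centred on their median over all probe sets (0.72), with genes of mean under 6 left out, and with trend and robust moderation (0.66 in both).

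Among the remaining transcription factors Atf3, a stress-induced repressor of the CREB family, had the largest difference, 0.31 ± 0.12, with the widest spread of any member among SPAK KO arrays: 6.37, 5.87, 6.44 and 6.19, against 5.801, 5.72, 6.02 and 6.07 in WT. Myc, the growth factor-induced regulator of biosynthesis, varied between WT arrays (6.93, 6.56, 6.71 and 6.69 in SPAK KO, against 7.20, 6.29, 6.31 and 6.68 in WT) and differed by 0.10 ± 0.18. Klf4, Maff and Klf2 gave 0.07 ± 0.06, 0.07 ± 0.13 and 0.02 ± 0.09. Of these near-zero differences, Fosl2 and Nr4a3 turned positive and Klf2 negative under at least 1 other array scaling.

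**Figure D2:**
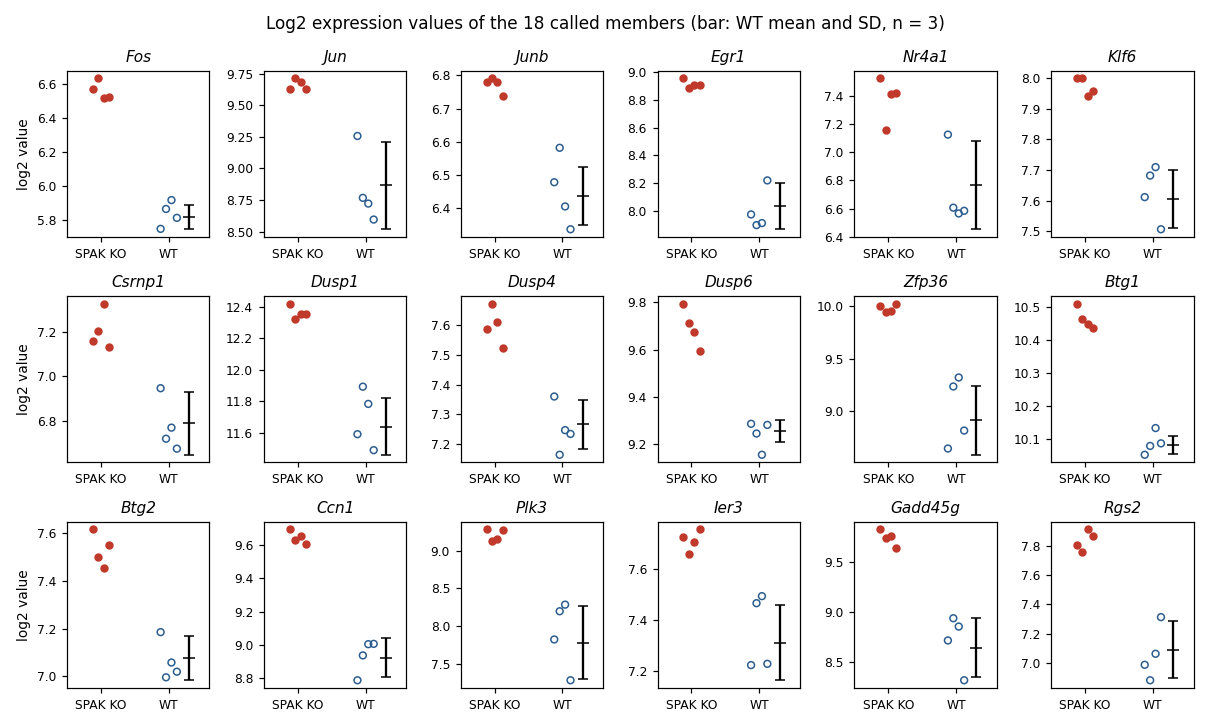
Log2 expression values (y axis, a scale of its own in each panel) of the 18 members called higher, with the 4 SPAK KO arrays as filled and the 4 WT arrays as open points; the bar is the WT mean ± SD over 3 samples, WT 2 and WT 3 counted as 1. The WT arrays scatter more than the SPAK KO arrays in most panels, most of all for Plk3.

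Of the 5 dual-specificity phosphatases, which remove phosphate from MAP kinases, 3 were called higher, 0 lower and 2 not at all, with a median difference of 0.35. Dusp1, the nuclear phosphatase that acts on p38, JNK and ERK (probe set 10449284), read 12.42, 12.32, 12.35 and 12.35 in SPAK KO, against 11.59, 11.89, 11.78 and 11.49 in WT. The groups were apart by more than the whole range within WT, and the difference was 0.67 ± 0.08. Its promoter, shown above, holds the CRE and an E-box.

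Dusp6, a cytoplasmic phosphatase specific for ERK and a common readout of ERK activity (10366043), read 9.79, 9.71, 9.67 and 9.59 in SPAK KO, against 9.29, 9.25, 9.16 and 9.28 in WT, a difference of 0.45 ± 0.06. Dusp4, another nuclear phosphatase (10571312), read 7.59, 7.67, 7.61 and 7.52 in SPAK KO, against 7.36, 7.17, 7.25 and 7.23 in WT, a difference of 0.35 ± 0.06. Dusp5 and Dusp2, nuclear phosphatases best known from activated lymphocytes and other stimulated cells, gave 0.02 ± 0.07 and −0.16 ± 0.10 and overlapped. The CArG boxes of Dusp5 were therefore not accompanied by a called difference.

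In the RNA-decay group 3 of 4 members were called higher and 0 lower, with a median difference of 0.42. Zfp36, or tristetraprolin, which binds AU-rich elements and shortens the life of early-response and cytokine mRNAs (10561453), read 10.01, 9.94, 9.95 and 10.02 in SPAK KO, against 8.65, 9.24, 9.32 and 8.82 in WT. WT 2 and WT 3 lay above the other WT arrays, yet all WT arrays lay below SPAK KO, by a mean difference of 0.97 ± 0.13. Zfp36l1, a paralog with the same kind of RNA-binding fingers, read 8.90, 8.83, 8.85 and 8.98 in SPAK KO, against 8.94, 8.76, 8.75 and 9.06 in WT. Its difference of 0.01 ± 0.07 turned to −0.04 when the arrays were quantile normalized again.

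Btg1 and Btg2 are antiproliferative proteins that recruit the deadenylase complex to mRNA. Btg1 (10365971) read 10.51, 10.46, 10.45 and 10.44 in SPAK KO, against 10.05, 10.08, 10.13 and 10.09 in WT. The WT mean of 10.08 ± 0.03 (SD, n = 3) left a small but clearly separate difference of 0.38 ± 0.05. Btg2, a p53 and growth factor target (10357875), read 7.61, 7.50, 7.45 and 7.55 in SPAK KO, against 7.18, 6.996, 7.06 and 7.02 in WT, a difference of 0.46 ± 0.06. Like Dusp1 it holds the CRE in its promoter.

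Of the 6 matricellular and kinase genes 2 were called higher, Plk3 and Ccn1, and 0 lower. Plk3, a polo-like kinase of stress and DNA damage signalling (10515399), had the largest difference of the 44, 1.31 ± 0.18. It read 9.28, 9.13, 9.15 and 9.28 in SPAK KO, against 7.82, 8.20, 8.28 and 7.28 in WT, and its WT values were also the most widely spread of any member. Plk2, its stress-induced paralog, read 6.44, 6.43, 6.52 and 6.43 in SPAK KO, against 6.75, 6.51, 6.71 and 6.02 in WT. The difference of −0.04 ± 0.14 turned positive when arrays were centred on their median over all probe sets, and the CRE of Plk2 was thus not accompanied by a called difference.

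Ccn1, a secreted matricellular protein that binds integrins and is a target of serum response factor and YAP (10502655), read 9.69, 9.63, 9.65 and 9.61 in SPAK KO, against 8.79, 8.94, 9.004 and 9.01 in WT, a difference of 0.71 ± 0.06. Ccn2, or connective tissue growth factor, its profibrotic relative, read 10.55, 10.57, 10.59 and 10.54 in SPAK KO, against 10.04, 10.64, 10.64 and 10.15 in WT. WT 2 and WT 3 thus lay above every SPAK KO array and WT 1 and WT 4 below, with a difference of 0.19 ± 0.13. Trib1, a pseudokinase adaptor of ubiquitin ligases, gave 0.23 ± 0.07 and Sik1, a salt-inducible kinase that restrains CREB coactivators, 0.14 ± 0.08. Neither was called.

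The other 9 early response genes included 3 called higher (Gadd45g, Rgs2 and Ier3) and 0 lower, with a median of 0.22. Gadd45g, a stress sensor that binds MAP kinase kinase kinases (10405211), read 9.83, 9.74, 9.76 and 9.64 in SPAK KO, against 8.72, 8.94, 8.86 and 8.32 in WT. Its difference of 1.03 ± 0.12 was the second largest of the 44. Gadd45a and Gadd45b, the p53 and TGF-β responsive paralogs, gave 0.22 ± 0.09 and 0.07 ± 0.07 and overlapped between genotypes.

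Rgs2, which speeds the inactivation of Gq and so dampens angiotensin and endothelin signalling (10358389), read 7.80, 7.76, 7.91 and 7.87 in SPAK KO, against 6.99, 6.88, 7.06 and 7.31 in WT, a difference of 0.78 ± 0.09. Ier3, a survival factor under NF-κB and p53 control (10444890), read 7.73, 7.66, 7.71 and 7.76 in SPAK KO, against 7.22, 7.47, 7.49 and 7.23 in WT, a difference of 0.36 ± 0.07. Rhob, a small GTPase induced by growth factors and stress, read 7.89, 7.72, 7.70 and 7.996 in SPAK KO, against 6.99, 7.47, 7.73 and 7.64 in WT, so that WT 3 lay above SPAK KO 2 and 3, and the difference of 0.37 ± 0.14 was not called. Ier2, Ier5 and Arc, the last a neuronal plasticity gene, gave 0.15 ± 0.12, 0.01 ± 0.08 and 0.003 ± 0.10.

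Members were also set beside their relatives. In 10 of the 11 families with 2 or more members on the list, some were called and others were not, and only in the Btg pair were both called. Whether paralogs differed from each other was not tested, since both were chosen on the same contrast. Mixed calls do not show that relatives behaved differently: the uncalled Klf10 had a larger difference (0.66) than the called Klf6 (0.35). Fos, Egr1, Nr4a1, Klf6, Zfp36, Ccn1, Plk3 and Gadd45g were each the only called gene of their family, while Jun was joined by Junb, and Dusp1 by Dusp4 and Dusp6.

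**Figure D3:**
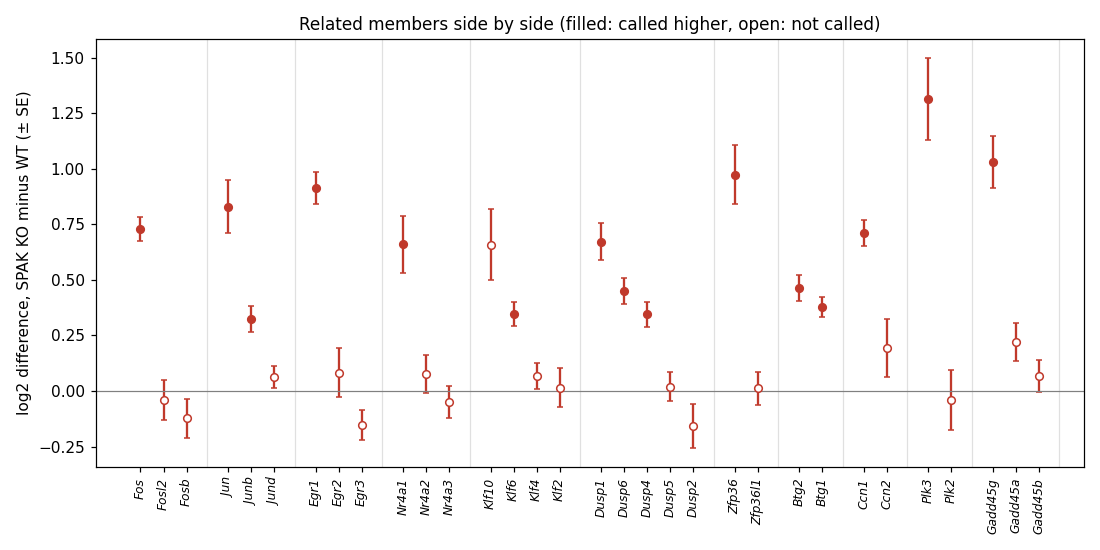
The log2 difference, SPAK KO minus WT, with its SE (y axis) for each member that has a relative among the members, set family by family along the x axis; filled points were called higher and open points were not. Fos, Egr1, Zfp36 and Plk3 stand between 0.73 and 1.31, while Fosb, Egr3, Zfp36l1 and Plk2 stand between −0.15 and 0.01. These are widely separated pairs: elsewhere the uncalled Klf10 (0.66) stands above the called Klf6 (0.35), and both Btg genes were called. Whether relatives differed was not tested.

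The calls rest on how the arrays are counted. With WT 2 and WT 3 averaged into 1 sample, 17 of the 44 were called higher (all but Nr4a1), where 0.878% of all genes were. With the 4 SPAK KO arrays averaged into 1 sample as well, limma called 0 members and 0% of all genes in either direction. That fit holds 1 SPAK KO sample, assumed to vary like WT. In it 18 members, the same 18, had an unadjusted p under 0.05, where 3.1% of all genes did. Since the fit uses the same contrast and the same SPAK KO means, this overlap is no independent support for the calls.

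In the fits that left out 1 of the 8 arrays, 12 of the 18 called members stayed called in each (Fos, Jun, Egr1, Dusp1, Dusp6, Zfp36, Btg1, Btg2, Ccn1, Plk3, Gadd45g and Rgs2). Klf6 was lost without SPAK KO 1 (difference 0.34 there) and Csrnp1 without WT 2 (0.41). Dusp4 was lost without SPAK KO 1, 2 or 3 (0.35, 0.32 and 0.34). Junb was lost without WT 3 or any 1 SPAK KO array (0.31 to 0.33), Nr4a1 without WT 2, WT 3, WT 4 or SPAK KO 1, 3 or 4 (0.61 to 0.65), and Ier3 without WT 1, WT 4 or any 1 SPAK KO array (0.32 to 0.38).

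The spread within each genotype does not use the contrast between them. Across the 4 WT arrays the highest minus the lowest value had a median of 0.36 over the members, against 0.22 over all genes. Across the 4 SPAK KO arrays the median was 0.15 over the members and 0.17 over all genes. The range was wider in WT than in SPAK KO for 39 of the 44 members, and for 64.0% of all genes. Among genes with a mean of 6 or more, the median SPAK KO range was 0.147 over 37 members and 0.135 over all such genes. The median WT ranges were 0.346 and 0.202 there. The WT range was the wider for 33 of the 37 members and 70.3% of those genes. Because the spread between SPAK KO arrays may be technical, this may set spread between animals against technical spread, and the 2 cannot be told apart. WT ranges went from 0.08 for Btg1 to 1.00 for Plk3, with Myc at 0.92, Klf10 at 0.88, and Rhob and Plk2 both at 0.74 next. With WT 2 and WT 3 averaged into 1 sample, the 3 WT samples did not rank alike for all members: WT 1 was the highest for 19 of the 44 (including Jun, Nr4a1, Klf10 and Myc), and WT 4 the lowest for 24, against 40.3% and 36.7% of all genes.

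**Figure D4:**
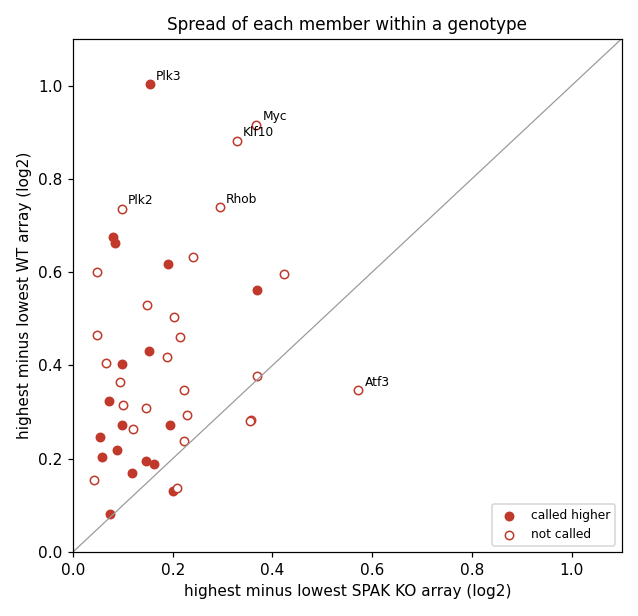
Each point is a member, with the highest minus the lowest value of the 4 SPAK KO arrays on the x axis and of the 4 WT arrays on the y axis, in log2 units; the line marks equal spread, and filled points were called higher. For 39 of the 44 members the point lies above the line, with Plk3 and Myc at the top, while Atf3 is the member with the widest SPAK KO range; the spread between SPAK KO arrays may be technical.

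Early response genes that were not members were counted from a list of 34, of which 33 were measured. In SPAK KO 7 rose, 0 fell and 26 did not pass, beside 1.39% of all genes called higher and 0.682% called lower. The median difference of the 33 was 0.19. Nfkbia, the inhibitor of NF-κB that NF-κB itself induces, rose by 1.16 ± 0.10 (limma adjusted p = 5.8e-04). Id1, an inhibitor of basic helix-loop-helix factors, rose by 1.33 ± 0.16 (limma adjusted p = 0.0045), Bhlhe40, a clock-linked repressor, by 0.59 ± 0.07 (0.0042) and Hes1, a Notch target, by 0.47 ± 0.06 (0.0053).

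Errfi1, a feedback inhibitor of the EGF receptor, read 12.71, 12.83, 12.81 and 12.80 in SPAK KO, against 12.45, 12.45, 12.52 and 12.54 in WT. It rose by 0.30 ± 0.05 (limma adjusted p = 0.0152). Without WT 2, or without SPAK KO 2, 3 or 4, the Errfi1 difference was about as large (0.285 to 0.296), but limma's adjusted p was 0.0523 to 0.058 and it was not called. Sgk1, a corticosteroid-induced kinase, rose by 0.50 ± 0.09 (limma adjusted p = 0.0209), but limma's adjusted p was 0.059 to 0.077 in the fits that left out 1 SPAK KO array, at differences of 0.49 to 0.51. The last of the 7 was the clock gene Per1, at 0.93 ± 0.18. The Per1 difference was 1.0001 without WT 2 (limma adjusted p = 0.0534) and 0.92 to 0.95 without any 1 SPAK KO array (0.071 to 0.084), and it was not called in these fits. This list too was written with results of these arrays known.

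Components of the inducing pathways were read from a second list. Of 29 listed kinases, transcription factors and coactivators 22 were measured, 1 rose, 0 fell and 21 did not pass. Beside this, 1.39% of all genes were called higher and 0.682% lower. The median difference of the 22 was 0.04. Crtc2, Map2k1, Elk3, Elk4 and Wwtr1, or 5 of the 22, lay above every WT array on all SPAK KO arrays, where 6.9% of all genes did. Below every WT array lay 1 of the 22, Mrtfb, where 5.71% of all genes did. The gene that rose was Crtc2, a CREB coactivator held back by salt-inducible kinases, which read 9.08, 9.06, 8.98 and 9.03 in SPAK KO, against 8.68, 8.65, 8.75 and 8.87 in WT. Its difference was 0.30 ± 0.06 (limma adjusted p = 0.0288), and it passed only in the fit without WT 4 among those that left out 1 array, with adjusted p from 0.055 to 0.101 in the others. Srf, which encodes serum response factor, gave 0.01 ± 0.06, the EGF receptor gene Egfr 0.05 ± 0.05 and the ERK kinase gene Map2k1 0.27 ± 0.07, and these did not pass. These are transcript levels and carry no information on kinase activity.

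Lists named for other tissues and for cell types were read beside the members. Their genes, Aqp2 among them, need not be confined to the tissue of the list. Perirenal fat markers summed on the linear scale were 586 to 620 in SPAK KO and 514 to 574 in WT, with 1 of 4 measured (Retn) called higher and 0 lower. Medulla markers summed to 1614 to 1702 in SPAK KO and 1740 to 1898 in WT, with 2 of 6 (Aqp2 and Aqp4) called lower and 0 higher. Both sums were separate between the genotypes, and their part in the members' differences was not tested. Each sum leans on its brightest marker, Fabp4 for fat and Aqp2 for medulla (SPAK KO means 8.78 and 9.72). All 4 fat markers differed upward. Of the 6 medulla markers 4 differed downward and 2 upward (Slc5a3 by 0.10 and Fxyd4 by 0.06). The sums therefore do not show how much of either tissue was present. Sums overlapped between genotypes for immune cells (981 to 1038 in SPAK KO, 995 to 1047 in WT; 1 of 9, Cd3e, called lower), endothelium and smooth muscle (4064 to 4315 in SPAK KO, 4174 to 4365 in WT; 0 of 7 called) and adrenal gland (124 to 143 in SPAK KO, 135 to 149 in WT; 0 of 5 called). Of the 4 called markers, Aqp2, Aqp4 and Cd3e passed in 1 and Retn in 0 of the 8 fits that left out an array. No marker, 0 in all, was at 0.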

How the data were processed

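The deposited table holds log2 expression values for 35556 probe sets on 8 arrays. The authors made them by RMA with the software Affymetrix Expression Console, according to the submitters' processing notes. Its version, the genome build and filters are not given in the sources used here. A probe set was named where the platform annotation gives it exactly 1 symbol (21789; 1621 had several, 12146 none). Of several for a gene, that of highest mean stood for it (19938 genes). The values come without detection calls, and the number of arrays limits precision.

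The fit used limma 3.58.1 (R 4.3.3; lmFit and eBayes) on all genes with genotype as the only term and Benjamini-Hochberg adjustment, and was tested on simulated data. The members, lists and tests were chosen with earlier results of these data known. Values on every array were given for called members and the 2 largest differences of each role, and up to 6 called genes of smallest p were named from each pathway list. Further members given array by array, and further genes, were picked once their values were known. Alternatives covered array scaling, dim genes, moderation (statmod 1.5.0), probe sets, replicate numbers and arrays left out or averaged. Replicate numbers do not pair the samples: deviations of same-numbered arrays correlated at −0.13 to 0.13. Promoter windows came from a RefSeq table of GRCm38.p6.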

Additional observations from a re-analysis of the deposited data

Results flagged for a closer look

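In 88 groups of 4 arrays (44 members in each genotype) 1 array stood far from the other 3 by Dixon's criterion, where chance flags about 1 in 20 groups. It was WT 1 for Nr4a1, at 7.13, with the other WT arrays between 6.56 and 6.61. The 4 SPAK KO arrays of Nr4a1 read 7.16 to 7.53, so the difference between genotypes is larger, at 0.795, when WT 1 is left out.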

How the results depend on the processing

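The 18 members called higher were 17 to 19 under other scaling, filters, moderation and averaging of WT 2 with WT 3, 13 to 18 when 1 array was left out, and 0 with agreeing arrays counted once. Members called lower were 0 throughout. Averaging probe sets cannot move a member, since each has 1. The median difference of the members was 0.346 without genes of mean under 6, a filter that leaves 37 members. That filter gave 462 genes higher and 202 lower, trend and robust moderation 526 and 241, against 278 and 136. Centring on medians over all probe sets, an alternative chosen after seeing the data, gave 673 and 88, or 88.4% higher against 67.1%. Leaving out 1 array gave 106 to 407 genes higher and 50 to 218 lower.

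With the replicate block, although the numbers do not pair the samples, 14 members were called (not Junb, Klf6, Dusp4 and Ier3), of 129 genes higher and 45 lower, and no sample correlated best with its own number.

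Other early response genes called higher numbered 11 without dim genes, 13 with all-probe-set centring, 0 with agreeing arrays counted once and 4 to 9 with 1 array left out. Inducing pathway genes called higher numbered 2 without dim genes, with trend and robust moderation or with all-probe-set centring. They numbered 0 with the replicate block or with WT 2 and WT 3 averaged, and 0 to 2 with 1 array left out. Beside these counts, the share of all genes called higher was 1.39% in the main fit. It was 3.85% without dim genes, 2.64% with trend and robust moderation and 3.38% with all-probe-set centring. With the replicate block it was 0.647%, with WT 2 and WT 3 averaged 0.878%, and with 1 array left out 0.532% to 2.04%.

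Signs changed only for uncalled members near 0. All-probe-set centring gave 0.019 for Fosl2, 0.010 for Nr4a3 and 0.018 for Plk2. Quantile normalization put the difference of Nr4a3 at 0.0042, the difference of Klf2 at −0.023 and the difference of Zfp36l1 at −0.039, and cyclic loess put them at 0.0056, −0.0068 and −0.029 in that order. With WT 2 and WT 3 averaged, and with agreeing arrays counted once, Myc was −0.0046, Zfp36l1 −0.029 and Ier5 −0.00012. With 1 array left out the range was −0.118 to 0.036 for Fosl2, −0.085 to 0.0064 for Nr4a3, −0.067 to 0.088 for Klf2, −0.0077 to 0.298 for Myc, −0.016 to 0.202 for Maff, −0.011 to 0.077 for Dusp5, −0.032 to 0.071 for Zfp36l1, −0.201 to 0.044 for Plk2, −0.041 to 0.077 for Ier5 and −0.066 to 0.083 for Arc. Causes were not tested.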
